A study of Bos taurus with 15 samples.

Results

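Tuft cells are rare epithelial cells of hollow organs that sense the contents of the lumen. They develop under the transcription factor POU2F3, use taste-cell signalling parts such as the G-protein subunit GNG13 and the cation channel TRPM5, and carry an actin core bundled with the help of advillin (AVIL). In the intestine of laboratory animals they answer worms and microbial metabolites by releasing acetylcholine, prostaglandins and cysteinyl leukotrienes, which act on neurons, secretory cells and innate lymphocytes. The 10 genes described here were 10 of the 27270 genes in the count tables, chosen by symbol: POU2F3 (ENSBTAG00000021340), AVIL (ENSBTAG00000016913), GNG13 (ENSBTAG00000033526), TRPM5 (ENSBTAG00000046662), CHAT (ENSBTAG00000016814), BMX (ENSBTAG00000000377), ALOX5 (ENSBTAG00000020319), LTC4S (ENSBTAG00000009737), PTGS1 (ENSBTAG00000006716) and HPGDS (ENSBTAG00000017073). CHAT makes acetylcholine and BMX is a TEC-family tyrosine kinase. ALOX5 and LTC4S carry out the first and the conjugating step of cysteinyl leukotriene synthesis, PTGS1 (COX-1) makes prostaglandin H2, and HPGDS turns it into prostaglandin D2.

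The study profiled single cells of the digestive tract of newborn (NB) and adult (AD) Holstein cattle by 10x Genomics scRNA-seq, and 15 of its libraries were analysed: 4 AD (cecum, colon, duodenum, jejunum) and 11 NB (the same 4 tissues with rectum and ileum, abomasum, omasum and reticulum, salivary gland and liver). No transgene or treatment of the animals is named in the sources used here. 1 lactating cow gave all AD samples and 3 calves gave the NB samples, but the sources used here do not say which calf gave which library. NB stomach and intestine samples were treated with EDTA and trypsin before enzyme digestion. NB reticulum, omasum and abomasum were then digested with collagenases, hyaluronidase and dispase, and NB intestine with a lamina propria kit. For NB liver and salivary gland the methods give other enzyme mixes and no EDTA or trypsin step. AD duodenum and cecum were digested with a lamina propria kit, and AD jejunum and colon with a multi tissue kit. Dissociation thus also differed among NB tissues. Each tissue and stage had 1 library, so stage, animal and dissociation cannot be told apart and no difference was tested across animals. The intervals below are exact 95% intervals, Poisson for unique molecular identifiers (UMIs) and binomial for shares of barcodes, and cover counting error only. The files held 172405 cell barcodes with 17707625 to 129458578 UMIs per library, and 119798 barcodes passed the filters. Of these, 23921 carried EPCAM, the epithelial adhesion molecule, and no PTPRC (EPCAM barcodes), and 49231 carried PTPRC, the leukocyte antigen CD45, and no EPCAM (PTPRC barcodes). Pairs of libraries shared a median of 17 kept barcode sequences, at most 36.

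Epithelial barcodes were few in the AD libraries, with 54 in duodenum, 212 in jejunum, 310 in cecum and 191 in colon, against 35 to 6641 in the NB libraries. The EPCAM class was not pure everywhere. In AD duodenum 48.1% of its EPCAM barcodes held 2 or more of the 5 epithelial markers EPCAM, KRT8, KRT18, KRT19 and CDH1, while 35.2% held 2 or more plasma cell markers and 24.1% 2 or more T or NK cell markers. Among NB EPCAM barcodes, 40.0% in cecum and 47.9% in rectum held 2 or more stromal markers, and 30.1% in ileum held 2 or more B cell markers. Of the 150 levels (10 genes in 15 libraries), 34 left their counting interval when KRT8 or KRT18 was also required, 13 when barcodes with COL1A2 or PECAM1 were removed, and 10 when barcodes with 2 or more mast cell markers were removed. With KRT8 and KRT18 in place of EPCAM 66 left it, with under 10% mitochondrial UMIs 42, and with 2 or more EPCAM UMIs 32. With no upper gene limit 26 left it, with EPCAM barcodes taken whatever PTPRC was 23, and with doublets left in 9.

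Of the developmental and structural genes, the regulator POU2F3 was read in EPCAM barcodes of 8 libraries and reached its highest level, 10.4 CPM (23 UMIs, 6.61–15.6), in AD jejunum. CPM is the gene's share of all UMIs of a barcode class, scaled to 1000000. It stood at 3.64 CPM (7 UMIs, 1.46–7.50) in AD colon and 2.68 CPM (10 UMIs, 1.29–4.93) in AD cecum. In the NB libraries its highest level was 0.409 CPM (4 UMIs) in colon. No POU2F3 UMI was read in EPCAM barcodes of AD duodenum, where the 54 barcodes allow up to 8.88 CPM. Of the 14 steps between libraries ordered by POU2F3 level, 1 had intervals that did not overlap.

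AVIL, the actin-bundling protein, was read at 121 CPM (107–137) in AD jejunum, 94.8 CPM (64.8–134) in AD duodenum, 27.0 CPM (20.2–35.4) in AD colon and 16.1 CPM (12.3–20.7) in AD cecum. In the NB libraries it lay between 0 and 2.15 CPM, highest in colon (21 UMIs, 1.33–3.28) and next in abomasum at 1.71 CPM (109 UMIs, 1.41–2.07), and these NB intervals overlapped. By level, all 4 AD libraries thus stood above all 11 NB libraries for AVIL. The interval of NB salivary gland, with 0 UMIs in 35 barcodes, reaches 17.3 CPM and overlaps that of AD cecum. In AD jejunum 29.7% of EPCAM barcodes (63 of 212, 23.7–36.4, median 9253 UMIs) had an AVIL UMI, against 0.173% of PTPRC barcodes (median 4447 UMIs).

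GNG13, the gamma subunit of the taste-receptor G protein, was read at 690 CPM (656–726) in AD jejunum, 444 CPM (376–521) in AD duodenum, 84.2 CPM (71.7–98.2) in AD colon and 66.2 CPM (58.2–75.0) in AD cecum. Its NB levels were 3.68 CPM (36 UMIs, 2.58–5.10) in colon, 3.22 CPM (3 UMIs) in liver, 2.72 CPM (173 UMIs, 2.33–3.16) in abomasum, and 1.04 CPM or less elsewhere. No GNG13 UMI was found in EPCAM barcodes of NB salivary gland, reticulum, omasum, duodenum or cecum. In omasum and reticulum, with 6641 and 4030 EPCAM barcodes, that allows up to 0.0412 and 0.0607 CPM, so these classes were searched deeply.

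TRPM5, the calcium-activated channel downstream of taste receptors, was read thinly in EPCAM barcodes throughout. It stood at 8.32 CPM (16 UMIs, 4.75–13.5) in AD colon, 6.80 CPM (15 UMIs, 3.80–11.2) in AD jejunum, 5.92 CPM (2 UMIs) in AD duodenum and 2.41 CPM (9 UMIs) in AD cecum, and no neighbouring libraries in its order had intervals apart. In EPCAM barcodes of NB libraries it had at most 6 UMIs, in rectum, and those of 8 NB libraries had none. Over all kept barcodes TRPM5 had 25 UMIs in NB rectum, 24 in NB colon and 15 in NB cecum. CHAT, which makes acetylcholine, had no more than 2 UMIs in EPCAM barcodes of any library and 0 in 11 of 15. Its level could therefore not be ordered at this depth.

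The kinase BMX was read at 119 CPM (105–134) in AD jejunum, 62.2 CPM (38.5–95.1) in AD duodenum, 22.9 CPM (16.6–30.7) in AD colon and 13.1 CPM (9.72–17.4) in AD cecum. The highest NB level was 6.08 CPM (387 UMIs, 5.49–6.72) in abomasum, below the AD libraries and above the 10 other NB libraries by level, although the intervals of salivary gland and liver, with 1 UMI each, overlap it. BMX in abomasum was spread over 323 of 4848 EPCAM barcodes (6.66%), at similar shares in barcodes with and without ATP4A, the acid pump of parietal cells (6.24% and 7.08%). The share was lower in barcodes with the surface mucous cell genes GKN1 (3.63%, 2.20–5.60, against 7.03%, 6.29–7.83, without) and TFF1 (4.86%, 3.87–6.03, against 7.57%, 6.68–8.54). Those barcodes were also shallower (median 8920 and 9882 UMIs, against 12937 and 14053), and by CPM the intervals overlapped, at 4.57 (2.89–6.85) against 6.21 (5.59–6.89) for GKN1 and 5.66 (4.59–6.90) against 6.24 (5.54–7.002) for TFF1.

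Of the eicosanoid genes, LTC4S, the leukotriene C4 synthase, was read at 876 CPM (837–916) in AD jejunum, 444 CPM (376–521) in AD duodenum, 174 CPM (156–194) in AD colon and 112 CPM (102–123) in AD cecum. Its NB levels were higher in the hindgut than in the small intestine, at 28.3 CPM (23.8–33.4) in cecum, 21.4 CPM (18.6–24.5) in colon and 18.3 CPM (15.8–21.1) in rectum, against 1.24 to 4.03 CPM in duodenum, jejunum and ileum. Few barcodes with the mast cell protease gene CPA3 carried much of the hindgut level: without them (6 in cecum, 6 in colon, 16 in rectum) LTC4S was 7.68 CPM (5.41–10.6), 16.2 CPM (13.8–18.9) and 8.89 CPM (7.17–10.9), with colon first. LTC4S was the member with the most separated order together with ALOX5: 5 of the 14 steps of each had intervals that did not overlap. ALOX5, the 5-lipoxygenase, was read at 203 CPM (184–222) in AD jejunum, 166 CPM (125–215) in AD duodenum, 68.1 CPM (56.9–80.8) in AD colon and 30.3 CPM (25.0–36.4) in AD cecum, and at 11.7 CPM (9.62–14.0) in NB colon, the highest NB library.

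PTGS1 differed from the other members in where it was read in NB epithelium. It stood at 75.2 CPM (64.2–87.6) in AD jejunum, 56.3 CPM (33.9–87.9) in AD duodenum and 26.0 CPM (19.3–34.3) in AD colon, but NB omasum followed at 17.3 CPM (16.3–18.3), with 985 of 6641 EPCAM barcodes (14.8%) carrying a UMI, and AD cecum stood at 6.70 CPM (4.34–9.90). NB reticulum had PTGS1 in 315 of 4030 EPCAM barcodes (7.82%). Of omasal barcodes with KRT14, a basal keratin, 15.1% had a PTGS1 UMI against 4.32% of those without it. Such shares depend on depth, which is not given for this split. Omasal barcodes with the proliferation gene MKI67 had PTGS1 at 24.7 CPM (23.4% of barcodes, median 12965 UMIs) against 13.3 CPM (11.2%, median 9501 UMIs) without it. HPGDS had 8 UMIs or fewer in EPCAM barcodes of every library and 0 in AD jejunum, cecum and colon, which allows up to 1.36, 0.804 and 1.56 CPM.

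**Figure D1:**
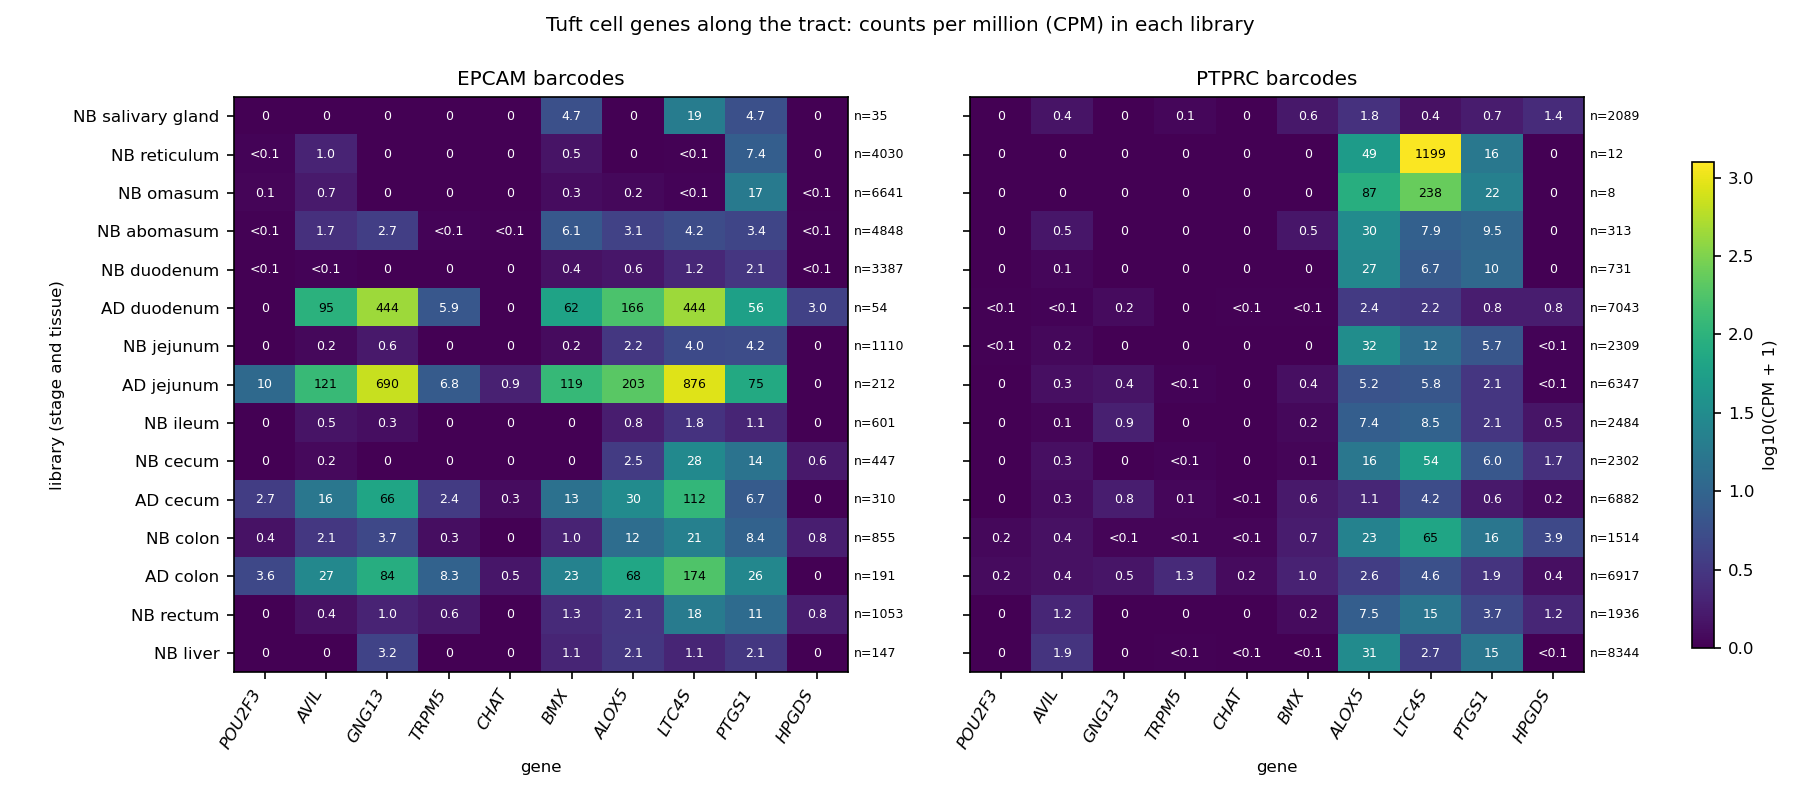
Level of each of the 10 genes (columns) in each library (rows), as CPM of the summed UMIs of EPCAM barcodes (left) and PTPRC barcodes (right). Printed numbers are CPM, color is log10(CPM + 1) and n is the number of barcodes. Within the EPCAM panel AVIL, GNG13, BMX, ALOX5 and LTC4S are highest in the 4 AD libraries, while ALOX5, LTC4S and PTGS1 are also read in PTPRC barcodes of NB libraries. PTPRC values of NB reticulum and omasum rest on 12 and 8 barcodes.

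The AD and NB libraries of the same tissue were then set side by side, for genes at 10 CPM or more in either library and on the scale of (CPM + 5), with a 4-fold difference as the threshold. Between 6 and 7 members per tissue passed the level filter: AVIL, GNG13, BMX, ALOX5, LTC4S and PTGS1 in each, and POU2F3 in jejunum. A member could pass only through the library where it was high, so these are not counts over all 10. In duodenum 6 members were at least 4-fold higher in AD, against 4.25% of all genes tested. In jejunum 6 were higher (background 2.48%), in cecum 3 (1.55%) and in colon 5 (2.77%). No member was 4-fold lower in AD in any of the 4 tissues, where 3.71%, 3.18%, 5.02% and 0.962% of genes tested were lower. Over all 10 members the median log2 difference was 3.38, 3.84, 1.22 and 1.73 in duodenum, jejunum, cecum and colon, against 0.19, 0.21, 0.09 and 0.37 over all genes tested.

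GNG13 differed most. In jejunum it was 690 CPM in AD and 0.644 CPM (8 UMIs) in NB, 123-fold on the (CPM + 5) scale and 1071-fold as a plain ratio. In duodenum and cecum the NB library had no GNG13 UMI, and the AD level was at least 6075-fold and 108-fold higher than the limit that 0 counts allow. In colon GNG13 was 10.3-fold higher (22.9-fold as a plain ratio), since NB colon held 36 GNG13 UMIs in 5 EPCAM barcodes.

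LTC4S was 72.0-fold higher in AD duodenum, 97.6-fold in jejunum and 6.79-fold in colon on the same scale, but 3.52-fold in cecum, under the threshold, with 112 CPM in AD and 28.3 CPM in NB. Without barcodes with 2 or more mast cell markers NB cecum fell to 7.85 CPM and the difference was 9.11-fold, past the threshold. The 5-lipoxygenase gene ALOX5 was higher in all 4 tissues, by 30.7-fold, 28.9-fold, 4.73-fold and 4.39-fold in duodenum, jejunum, cecum and colon. AVIL was likewise higher in all 4, by 19.7-fold, 24.5-fold, 4.05-fold and 4.48-fold. The cecal AVIL value lay just past the threshold and rests on 60 AD UMIs and 1 NB UMI. Centred on the median gene, ALOX5 (3.39-fold) and AVIL (3.46-fold) in colon and AVIL (3.81-fold) in cecum fell under it. With a pseudocount of 20 CPM both ALOX5 and AVIL fell under it in cecum and in colon.

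BMX was 12.5-fold higher in AD duodenum, 23.6-fold in jejunum and 4.63-fold in colon. The colon value was 3.58-fold when centred on the median gene and also under the threshold with a pseudocount of 20 CPM. In cecum it was 3.63-fold, under the threshold, with 49 UMIs in AD and 0 in NB (at least 21.4-fold). PTGS1 passed the threshold in duodenum (8.66-fold) and jejunum (8.73-fold), though with a pseudocount of 20 CPM in neither (3.46-fold and 3.94-fold), and not in colon (2.31-fold) or cecum, where the AD level of 6.70 CPM was below the NB level of 14.2 CPM (11.0–17.9). Without NB barcodes that also held COL1A2 or PECAM1 the NB level was 7.32 CPM (4.47–11.3), and the intervals overlapped. With KRT8 or KRT18 also required in both libraries the direction turned, at 6.93 CPM in AD and 6.16 CPM in NB (1.07-fold). POU2F3 in jejunum was 3.08-fold on the (CPM + 5) scale, under the threshold, with 23 UMIs against 0, which is at least 43.1-fold as a plain ratio. The duodenal values rest on 5 AD barcodes that carried all the AVIL, GNG13, BMX, ALOX5 and LTC4S UMIs of that EPCAM class, so duodenum is the weakest of the 4 comparisons.

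**Figure D2:**
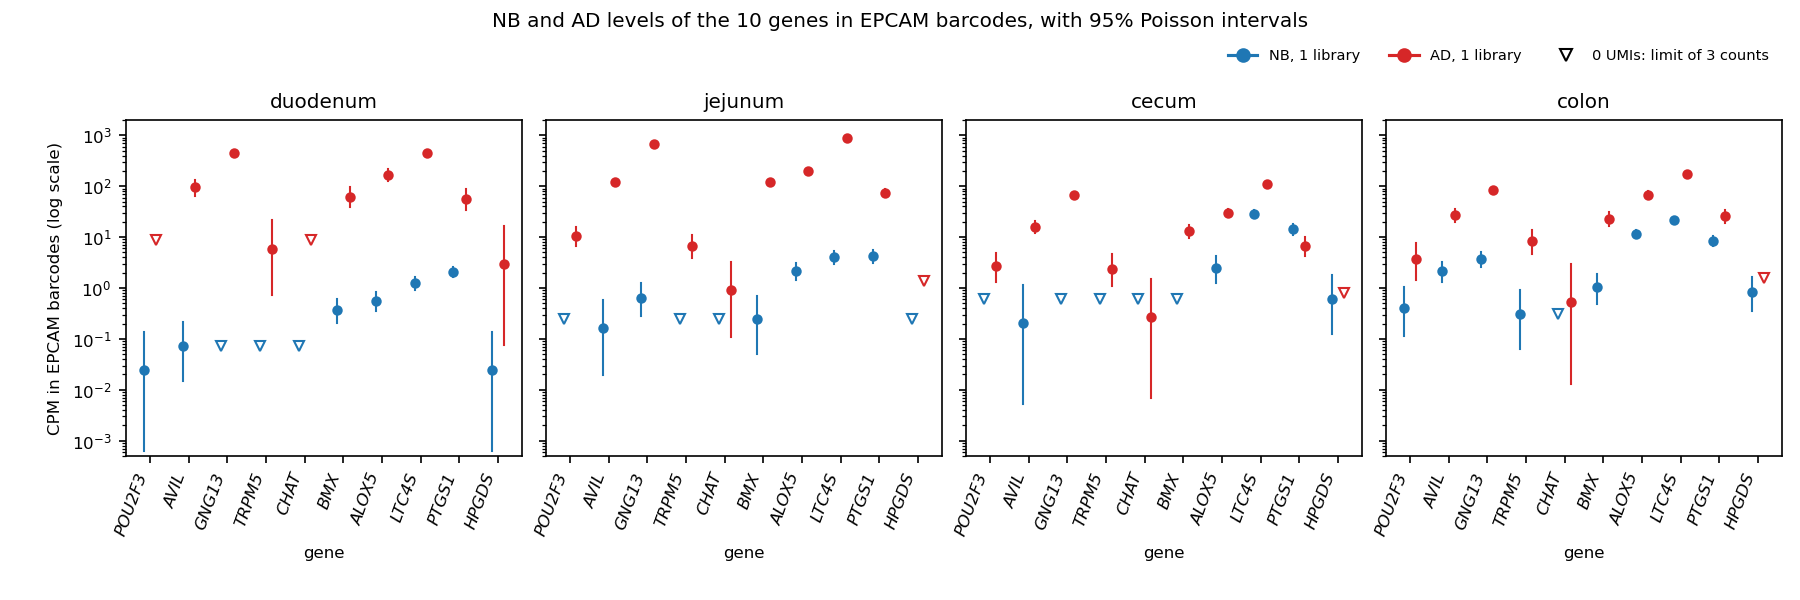
CPM of each gene in EPCAM barcodes (log scale) of the NB (blue) and AD (red) library of 4 tissues, 1 library each, with exact 95% Poisson intervals; open triangles mark the limit of 3 counts where no UMI was read. AD lies above NB for AVIL, GNG13, BMX, ALOX5 and LTC4S in each tissue, and the order is turned for PTGS1 in cecum, an order that is lost when KRT8 or KRT18 is also required (6.93 CPM in AD and 6.16 CPM in NB).

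Other genes known from tuft cells, a list of 32 of which 29 were in the files, were read in the same way. Of those that passed the level filter, 10 of 15 were higher in AD duodenum, 11 of 17 in jejunum, 4 of 12 in cecum and 5 of 13 in colon, each with 1 lower, beside the background shares given above. Over all 29 genes the median log2 difference was 0.29, 0.98, 0.21 and 0.77, against 0.19, 0.21, 0.09 and 0.37 over all genes tested. A gene could pass the filter through its high library alone. RGS13, a regulator of G-protein signalling, SPIB, an ETS-family transcription factor, and ALOX5AP, the helper protein of ALOX5, were higher in all 4. RGS13 was 232 CPM in AD jejunum with no UMI in NB jejunum, 38.9 against 0.82 CPM in cecum and 83.7 against 9.92 CPM in colon. ALOX5AP was 353 against 8.13 CPM in jejunum, 28.7 against 2.87 CPM in cecum and 57.7 against 4.20 CPM in colon, AD first. SPIB was 336 against 7.65 CPM, 230 against 2.67 CPM and 389 against 12.6 CPM in these tissues. In AD cecum, EPCAM barcodes with UMIs of 3 or more of the 10 genes held 67 SPIB UMIs and the remaining EPCAM barcodes 790. HEPACAM2, also called in cecum, had 44 and 1374, while RGS13 had 144 and 1 and ALOX5AP 106 and 1. In AD jejunum SPIB had 309 and 432. SPIB and HEPACAM2 were thus read mostly outside these barcodes in AD cecum. The gene that was lower in each of the 4 was ASCL2, a stem-cell transcription factor, at 7.70 against 50.3 CPM in jejunum and 4.68 against 110.5 CPM in colon.

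A list of 20 other eicosanoid genes, which also holds ALOX5AP, was read beside these, with the same background shares as above. Of those that passed the level filter, 2 of 9 were higher and 1 lower in AD duodenum, 3 of 10 higher and 2 lower in jejunum, 1 of 10 higher and 2 lower in cecum, and 1 of 9 higher and 0 lower in colon. TBXAS1, the thromboxane synthase, was higher in duodenum (11.2-fold) and jejunum (13.1-fold). The prostaglandin E and D synthases PTGES and PTGDS were lower in AD jejunum and cecum, and PTGES2 in duodenum. PLA2G4A, which releases arachidonic acid from membranes, was higher in jejunum.

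Members were also compared between EPCAM and PTPRC barcodes of the same library, which share animal and preparation. In AD duodenum, jejunum and colon 6, 7 and 6 members passed the level filter of 10 CPM in either class. In each, 6 of them (AVIL, GNG13, BMX, ALOX5, LTC4S and PTGS1) were at least 4-fold higher in EPCAM barcodes. Of all genes tested 6.22%, 8.54% and 10.9% were. In AD cecum 3 of the 5 that passed were (GNG13, ALOX5 and LTC4S, background 10.6%). No member exceeded 5.77 CPM in AD PTPRC barcodes, so a member could pass there only through the EPCAM class. Over all 10 members the median log2 difference was 3.57, 3.92, 1.37 and 2.19 in AD duodenum, jejunum, cecum and colon. Over all genes tested it was -0.17, -0.10, -0.18 and 0.03. In NB abomasum only 1 of the 10 members, ALOX5, passed the level filter, so no other member could be called (background 2.57% higher). ALOX5 was lower in EPCAM barcodes there, at 3.11 CPM against 30.1 CPM in PTPRC barcodes (4.33-fold on CPM + 5), as were 13.9% of genes tested. Over all 10 members the median log2 difference was 0.01. The median gene in this comparison lay at a log2 difference of -0.92. ALOX5 was also lower in EPCAM barcodes of NB duodenum (5.75-fold, background 8.78%), NB jejunum (5.17-fold, 7.62%) and NB liver (4.98-fold, 6.78%). LTC4S was higher in EPCAM barcodes of NB salivary gland, from 4 UMIs in 1 barcode (18.8 against 0.373 CPM, 4.43-fold, background 10.4%). No member was called in NB ileum, cecum, colon or rectum, where only 0, 3, 3 and 2 members passed the level filter.

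The next question was whether the members were read in the same barcodes. EPCAM barcodes with UMIs of 3 or more of the 10 genes made up 33.5% (71 of 212, 27.2–40.3) in AD jejunum, 9.26% (5 of 54, 3.08–20.3) in AD duodenum, 9.03% (28 of 310, 6.09–12.8) in AD cecum and 8.38% (16 of 191, 4.86–13.2) in AD colon. With each barcode thinned to 1000 UMIs these shares were 30.1%, 9.43%, 8.94% and 7.14%. AD jejunum stood apart from the other AD libraries, whose intervals overlapped one another. Few barcodes lay in between: of the 212 in AD jejunum 127 had none of the 10 genes, 13 had 1, 1 had 2, and the 71 with 3 or more had a median of 6. Among NB libraries the shares were 1.52% (13 of 855, 0.812–2.59; thinned 0.943%) in colon, 0.950% (10 of 1053; thinned 0.191%) in rectum, 0.895% (4 of 447; thinned 0.226%) in cecum and 0.639% (31 of 4848, 0.435–0.906; thinned 0.372%) in abomasum.

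NB duodenum and jejunum each had 1 such barcode, of 3387 and 1110. Salivary gland, reticulum, omasum, ileum and liver had none, which allows a share of up to 0.0744% in reticulum, 0.0452% in omasum, 0.499% in ileum, 2.04% in liver and 8.57% in salivary gland, where only 35 barcodes were read. The share of an EPCAM class also depends on how many other epithelial cells survived the preparation, which differed between stages. Over all kept barcodes, those with 2 or more of POU2F3, AVIL, GNG13 and TRPM5 numbered 93 in AD jejunum (0.930%, 0.751–1.14), 53 in AD colon (0.622%), 43 in AD cecum (0.496%), 8 in AD duodenum (0.0842%) and 37 in NB abomasum (0.415%). NB colon had 10 and the remaining NB libraries at most 2. By this count NB abomasum was close to AD cecum, with intervals of 0.292–0.571% and 0.359–0.668%. This share depends on the makeup of each library too. EPCAM barcodes were 54.3% of kept barcodes in NB abomasum and 3.58% in AD cecum, and PTPRC barcodes 3.51% and 79.4%. Within EPCAM barcodes the same count gave 0.557% (0.367–0.809) in NB abomasum and 6.77% (4.24–10.2) in AD cecum, with intervals apart.

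**Figure D3:**
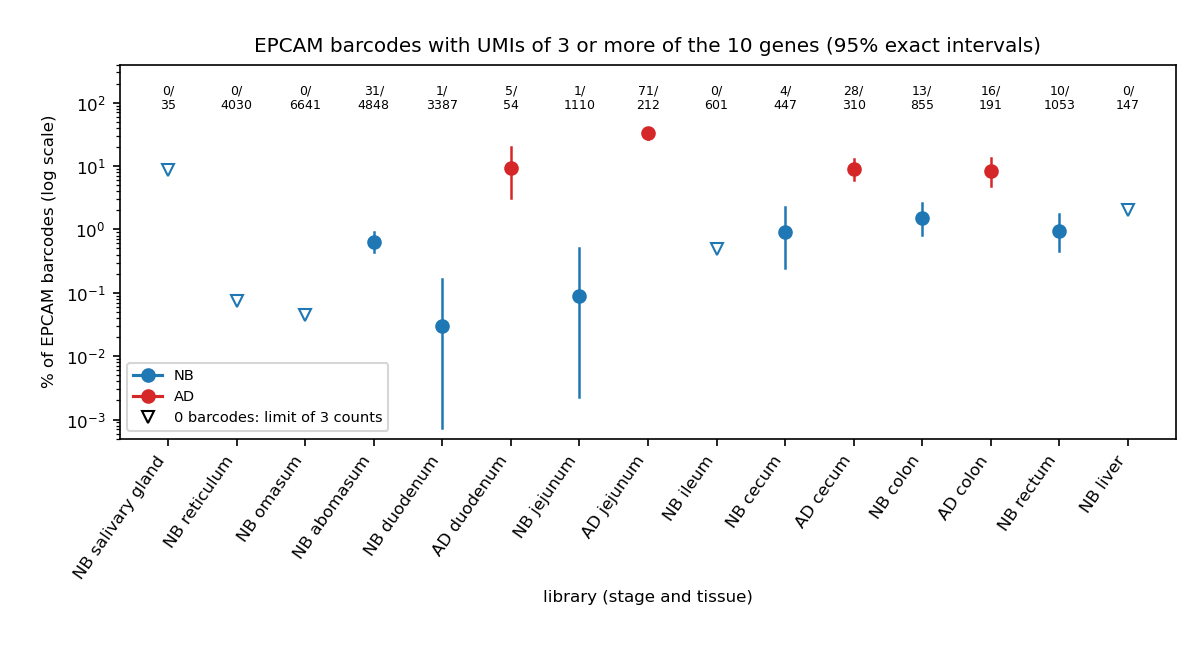
Share of EPCAM barcodes with UMIs of 3 or more of the 10 genes (log scale) in each library, with exact 95% binomial intervals and the counts printed above; triangles mark the limit of 3 counts for libraries with none. The 4 AD libraries lie between 8.38% and 33.5% and the NB libraries with any such barcode at 1.52% or below; NB salivary gland and liver, with none, allow up to 8.57% and 2.04%.

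To see how each gene was read in these cells without using the gene itself, EPCAM barcodes were split by whether they held 3 or more of the other 9 genes. In AD jejunum LTC4S was read in 68 of 68 such barcodes, ALOX5 in 65 of 69, GNG13 in 64 of 69, AVIL in 63 of 71, BMX in 62 of 70 and PTGS1 in 50 of 70. POU2F3 was read in 18 of 71 and TRPM5 in 15 of 71, and CHAT in 2 of 71. Each gene was read in at most 5.59% of the remaining AD EPCAM barcodes of jejunum, cecum or colon. The barcodes with 3 or more other members held 97.0% to 100% of the EPCAM-class UMIs of each member that was read in AD jejunum, and 86.6% to 100% in AD cecum. In AD colon the range was 90.0% to 100% apart from TRPM5, with 68.8%.

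Within these barcodes the levels of GNG13, LTC4S, ALOX5 and AVIL differed less among AD jejunum, cecum and colon than over all EPCAM barcodes. GNG13 was read at 4169, 3022 and 1896 CPM, LTC4S at 5274, 4851 and 3874 CPM, ALOX5 at 1151, 1271 and 1498 CPM and AVIL at 698, 686 and 585 CPM, respectively. Over all EPCAM barcodes GNG13 ranged from 66.2 to 690 CPM in the same libraries. The intervals of AVIL overlapped among the 3 tissues, and those of GNG13 did not. POU2F3 stood at 59.9, 121 and 81.9 CPM and TRPM5 at 39.1, 97.7 and 130 CPM, from 23 POU2F3 UMIs or fewer per library. All 18 POU2F3 barcodes of AD jejunum held AVIL, ALOX5 and LTC4S, and 17 of 18 held GNG13.

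HPGDS was not read in such barcodes of 4 libraries, 0 of 71 in AD jejunum, 0 of 28 in AD cecum, 0 of 16 in AD colon and 0 of 30 in NB abomasum. In AD jejunum that allows up to 7.81 CPM, or a UMI in 4.23% of barcodes, which does not limit the share of cells expressing the gene. In AD cecum, AD colon and NB abomasum, with fewer UMIs, it allows up to 36.3, 35.1 and 17.8 CPM. HPGDS was thus not detected at this depth in barcodes where PTGS1, one step earlier, stood at 440, 290, 533 and 556 CPM. In NB hindgut, where mast cell markers were found in such barcodes, HPGDS was read in 2 of 3 in cecum, 1 of 11 in colon and 1 of 5 in rectum.

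In NB abomasum the same split gave 26 of 29 barcodes with GNG13 (1000 CPM, 855–1163), 27 of 31 with AVIL (528 CPM), 26 of 29 with ALOX5 (1087 CPM), 26 of 28 with LTC4S (1300 CPM, 1126–1492) and 25 of 29 with PTGS1 (556 CPM). GNG13 and LTC4S were lower than in the same kind of barcode of AD jejunum, with intervals apart, while the intervals of ALOX5 overlapped (931–1261 and 1046–1264 CPM). POU2F3 was read in 1 of 30, TRPM5 in 3 of 31, BMX in 17 of 30 (212 CPM) and CHAT in 2 of 31. These barcodes held 97.7% of the GNG13 UMIs of abomasal EPCAM barcodes, 87.4% of ALOX5, 85.3% of AVIL and 75.0% of LTC4S, but 40.3% of PTGS1 and 9.6% of BMX. BMX was read in 306 of the 4818 remaining barcodes (6.35%), so abomasal BMX was mostly outside them.

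**Figure D4:**
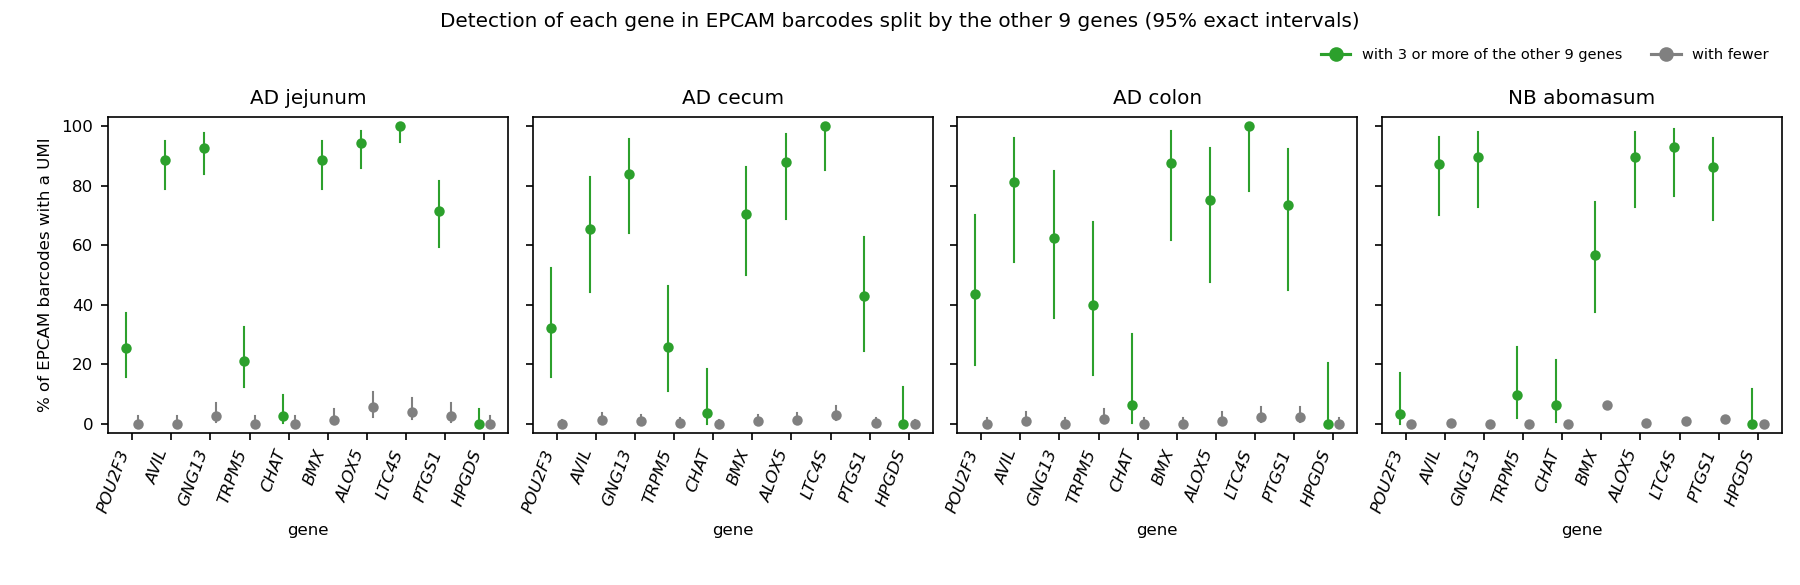
Share of EPCAM barcodes with a UMI of each gene, in barcodes with 3 or more of the other 9 genes (green) and in those with fewer (gray), in 4 libraries, with exact 95% binomial intervals. AVIL, GNG13, BMX, ALOX5 and LTC4S are read in most green barcodes and few gray ones, POU2F3, TRPM5 and CHAT in fewer, and HPGDS in none.

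The barcodes with 3 or more members were checked against markers of other cells. All of them carried EPCAM by choice, and EPCAM is on the epithelial list, so any other marker of that list sufficed to reach 2. In AD jejunum 70 of 71 held 2 or more epithelial markers, as did 28 of 28 in AD cecum and 16 of 16 in AD colon. So did 5 of 5 in AD duodenum and 31 of 31 in NB abomasum. None of them held 2 or more enteroendocrine markers. Their median depth was below that of the other EPCAM barcodes in 4 of these libraries, at 5263 against 12838 UMIs in AD jejunum, 2057 against 14279 in AD cecum, 3564 against 11628 in AD colon and 4815 against 12476 in NB abomasum, and above it in AD duodenum, at 6466 against 4295. The enterocyte lipid-binding gene FABP2 stood at 18 CPM in them against 4741 CPM in the remaining EPCAM barcodes of AD jejunum. KRT18, a keratin of simple epithelia, went the other way in each library, at 1523 against 157 CPM in AD jejunum and 2474 against 542 CPM in NB abomasum. VIL1, a microvillus actin bundler on the same enterocyte marker list as FABP2, was 641 against 195 CPM and 414 against 4 CPM in these libraries. The enterocyte list (FABP2, ALPI, APOA1, ANPEP and VIL1) thus had no common direction in AD jejunum, and ALPI, APOA1 and ANPEP are not reported here.

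NB hindgut was different. Of the barcodes with 3 or more members, 1 of 4 in NB cecum, 9 of 13 in NB colon and 4 of 10 in NB rectum held 2 or more epithelial markers, while 4 of 4, 5 of 13 and 9 of 10 held 2 or more mast cell markers (CPA3, MS4A2, HDC, FCER1A, GATA2). In NB cecum no barcode with 3 or more members was left once barcodes with 2 or more mast cell markers were removed.

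PTPRC was itself read in part of the barcodes with 2 or more of POU2F3, AVIL, GNG13 and TRPM5: 21 of 93 in AD jejunum, 19 of 43 in AD cecum, 28 of 53 in AD colon and 9 of 37 in NB abomasum. CD3E, a T cell receptor subunit, was read in 13 of 93, 9 of 43, 7 of 53 and 0 of 37. In the same order, 2 or more T or NK cell markers were held by 3 of 93, 5 of 43, 2 of 53 and 0 of 37. The T or NK class was drawn from PTPRC barcodes without EPCAM, so barcodes with EPCAM could not enter it. In that class, 2 or more of the 4 genes were read in 0 of 2758 barcodes in AD jejunum. They were read in 1 of 6163 in AD cecum and 1 of 6324 in AD colon. Epithelial markers were held by 85 of 93, 39 of 43, 49 of 53 and 37 of 37. A CD45-positive subset of tuft cells is known in the mouse, and the origin of the PTPRC reads here was not tested.

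TRPM5 in AD colon lay largely outside the EPCAM class. Of 128 TRPM5 UMIs in kept barcodes there, 16 were in EPCAM barcodes, 26 in barcodes with both EPCAM and PTPRC, 42 in PTPRC barcodes and 44 in barcodes with none of EPCAM, PTPRC, COL1A2 and PECAM1. AVIL in the same library was distributed as 52, 51, 12 and 7 UMIs. Of the PTPRC barcodes that fitted no leukocyte class, 14 of 232 held 32 TRPM5 UMIs (31.5 CPM).

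The eicosanoid members were also read in cells of other kinds. Barcodes with 2 or more mast cell markers held LTC4S at 3760 CPM in NB cecum (166 barcodes), 4158 CPM in NB colon (153) and 2866 CPM in NB rectum (143), and had 85.3%, 87.3% and 69.0% of all LTC4S UMIs of these libraries. In AD jejunum the mast-marker barcodes stood at 2850 CPM and held 8.2% of the LTC4S UMIs (26 barcodes). They held 10.7% in AD cecum (15 barcodes), 13.3% in AD colon (26) and 40.2% in AD duodenum (34). The mast-marker share of LTC4S reads was thus lower in the AD than in the NB library in cecum, colon and jejunum (43.3% in NB jejunum) and higher in duodenum, where 8 NB barcodes held 1.43%. HPGDS was read in mast-marker barcodes at 124, 150 and 146 CPM in NB cecum, colon and rectum and 164 CPM (92.0–271) in AD jejunum, where they held all of its UMIs (87.5%, 75.2% and 89.5% in the NB libraries). Their share of HPGDS UMIs was lower in AD cecum (45.5%, 5 UMIs), AD colon (35.3%, 6 UMIs), AD duodenum (29.4%, 10 UMIs) and NB ileum (54.8%, 17 UMIs), and was 21.7% in NB salivary gland and 50.0% in NB abomasum (5 and 3 UMIs).

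PTGS1 in mast-marker barcodes was 383, 842 and 700 CPM in NB cecum, colon and rectum, and ALOX5 137, 192 and 188 CPM. AVIL and TRPM5 had 0 UMIs in the mast-marker barcodes of every library with such a set, and none held 2 or more of POU2F3, AVIL, GNG13 and TRPM5. The 5-lipoxygenase ALOX5 was also read in macrophage class barcodes, from 14.7 CPM in AD jejunum to 100 CPM in NB colon, and at 46.0 CPM in NB liver. PTGS1 in barcodes with COL1A2, a fibroblast collagen, ranged from 47.8 to 159 CPM across NB reticulum, omasum, abomasum and intestine. In NB cecum and rectum EPCAM barcodes, PTGS1 was 23.6 and 17.8 CPM where COL1A2 was also read and 8.31 and 6.78 CPM where it was not.

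**Figure D5:**
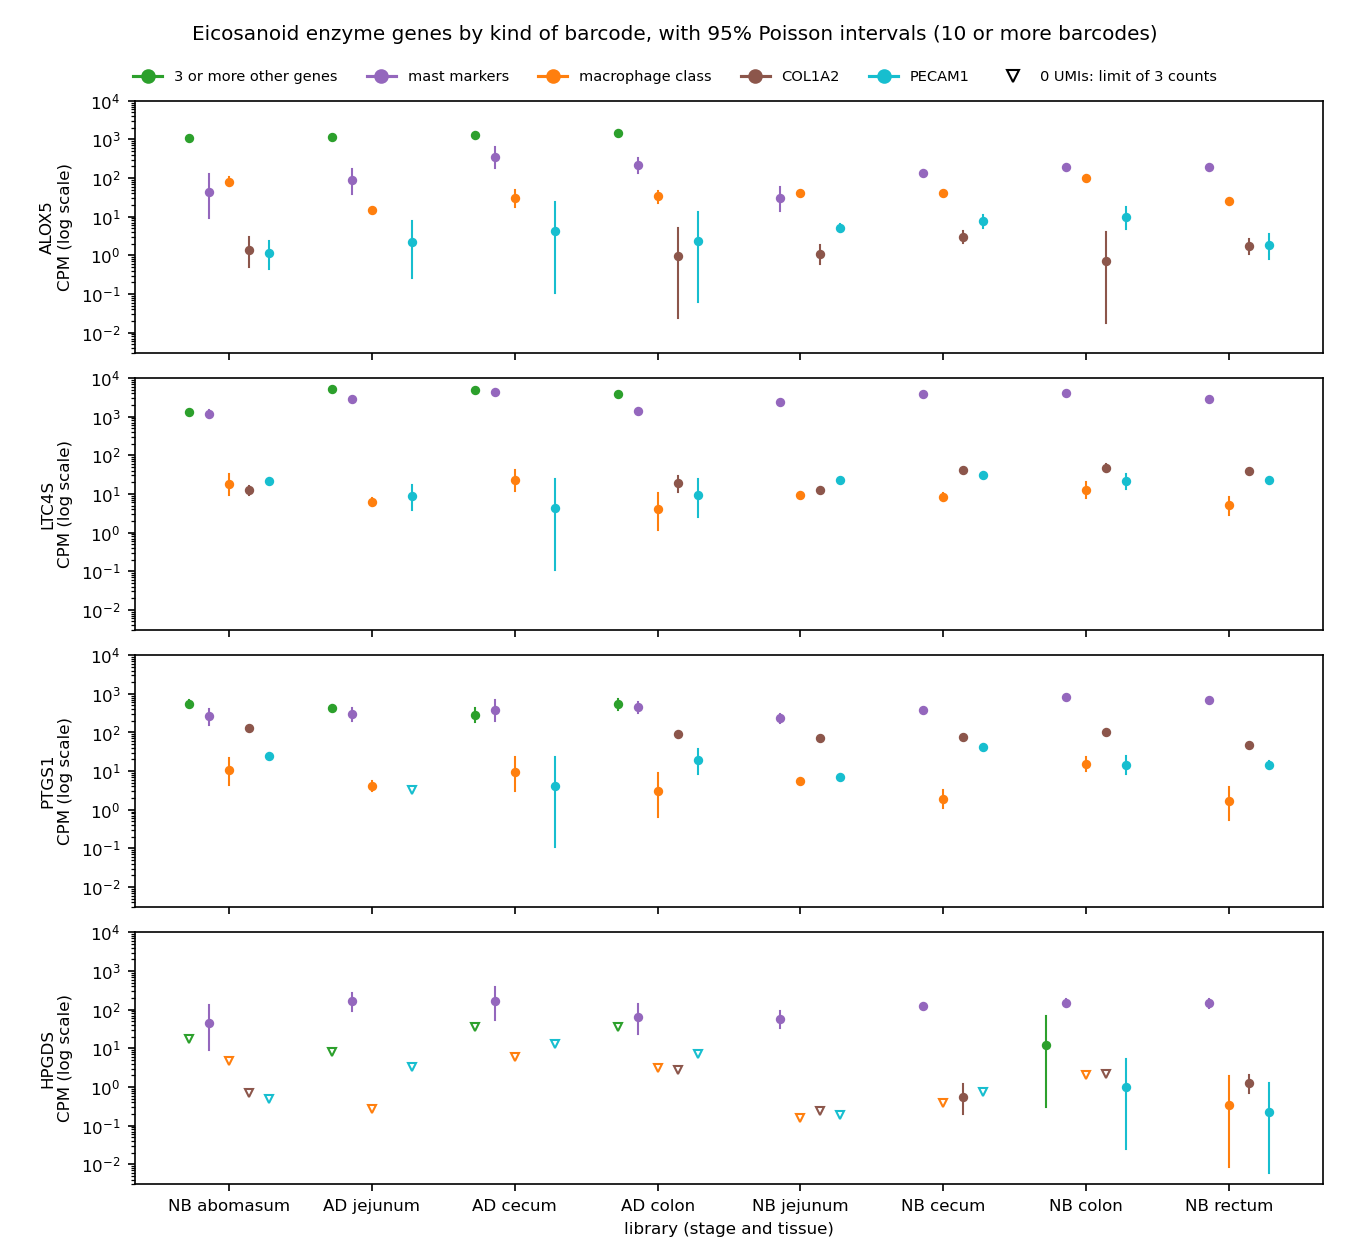
CPM (log scale) of ALOX5, LTC4S, PTGS1 and HPGDS in EPCAM barcodes with 3 or more of the other 9 genes, mast-marker barcodes, macrophage class barcodes, and COL1A2 and PECAM1 barcodes of 8 libraries, with exact 95% Poisson intervals and triangles for the limit of 3 counts. LTC4S stands above 1000 CPM in the first kind in NB abomasum and AD jejunum, cecum and colon and in mast-marker barcodes of all 8. HPGDS is read in mast-marker barcodes of all 8 and, in the first kind, in 1 of 11 barcodes of NB colon and in none of the other 4 libraries with 10 or more.

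Beyond the 10 members, the genes that stood out most in EPCAM barcodes with 3 or more of them were listed by a fixed rule, the highest smallest ratio over AD jejunum, AD cecum and NB abomasum, the libraries with 20 or more such barcodes. They included ALOX5AP, KRT23, RGS13, GRASP, BPIFA2C, FYB1, LRMP, MAP2 and GGH. ALOX5AP, which presents arachidonic acid to ALOX5, stood at 2021, 1283 and 1924 CPM in these libraries. RGS13 stood at 1333, 1742 and 692 CPM and the keratin KRT23 at 1226, 569 and 1152 CPM. The members chose these barcodes, so the list is a description of them.

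Of the 29 other tuft cell genes in the files, 12 were at least 4-fold higher in these barcodes than in the rest of AD jejunum, 14 in AD cecum and 15 in NB abomasum, against 1.75%, 3.16% and 2.996% of all genes. In all 3 libraries 11 were higher, and 11 others were past the fold in none. These calls had no level filter, and the shares of all genes include genes with no UMI. KCTD12 in AD cecum was called from 2 UMIs. SH2D7, among the 11 higher in all 3, was called in NB abomasum from 3 UMIs. IL17RB, the interleukin-25 receptor, was 198, 121 and 119 CPM in these barcodes and had no UMI in the rest. GFI1B, a transcription factor, was 85.9, 60.5 and 96.5 CPM and the receptor kinase KIT 224, 72.6 and 238 CPM. DCLK1, a kinase used as a tuft cell marker in the mouse, and IL25, the cytokine these cells release there, had no UMI in the barcodes of all 3 libraries, which allows up to 7.81 CPM in AD jejunum, 36.3 CPM in AD cecum and 17.0 CPM in NB abomasum. GNAT3, GNB3, SUCNR1, PLCB2 and ITPR3, which act in taste and succinate signalling, were past the fold in none of the 3. CD24, a surface glycoprotein, was lower in these barcodes of AD jejunum (346 against 1871 CPM) and stood at 569 against 1173 CPM and 386 against 658 CPM in the other 2. SPIB was read at 805, 811 and 471 CPM, against 237, 217 and 0.03 CPM in the rest. Of the 20 other eicosanoid genes, 3, 3 and 2 were higher in the barcodes of AD jejunum, AD cecum and NB abomasum and 3, 0 and 0 lower, where 1.27%, 2.48% and 0.275% of all genes were lower. PLA2G4A was 346, 423 and 210 CPM against 18.1, 17.3 and 13.0 CPM in the rest, and TBXAS1 was 620, 121 and 39.7 CPM against 2.19, 2.74 and 6.48 CPM. HPGD, which inactivates prostaglandins, had no common direction, at 232, 181 and 56.7 CPM against 116, 299.7 and 21.6 CPM. LTA4H, which directs leukotriene A4 toward leukotriene B4, was lower in the AD jejunum barcodes (26.0 against 220 CPM) and stood at 48.4 against 65.5 CPM in AD cecum and 34.0 against 19.5 CPM in NB abomasum. PTGS2, PTGES, ALOX12 and ALOX15 had no UMI in them.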

How the data were processed

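Single-cell suspensions were run on the 10x Genomics Chromium 3' v3 system and, per the labels and the study's methods, the authors made UMI counts per gene and barcode with Cell Ranger 3.1.0 on ARS-UCD1.2; the annotation release is not given in the sources used here. The deposited counts of 15 libraries were read as sparse matrices. Barcodes with 500 to 4000 genes, under 50000 UMIs and under 40% UMIs of 13 mitochondrial genes were kept, as in the study. Doublets were then removed by Scrublet score (scanpy 1.11.5, 30 components), at 0.8% per 1000 barcodes of a library, where the study used another caller. Members were found by symbol (10 of 10). UMIs were summed per library and class and given as CPM. The 3' counts were not scaled to length, so levels are not compared between genes. With 1 library per tissue and stage no test was made; a call is at least 4-fold on (CPM + 5). A count of 0 is given with the limit of 3 counts. A PTPRC barcode was put in the leukocyte class with most of 5 markers, needing 2 and no tie. Shares were also computed after thinning each barcode to 1000 UMIs. The genes named were the 10 members; from the lists of other tuft and eicosanoid genes, those past the fold, with others of these lists added after their values were seen; the 10 leading genes of barcodes with 3 or more members, of which 1 is not reported here; and the 5 genes most like POU2F3. SH2D6, IRAG2 and TSLP of the tuft list were not matched by symbol. The members and lists were chosen with earlier results of these data known. Gene sequences were not used here. Columns left out numbered 0. Scripts used Python 3.11.15, NumPy 2.4.6, SciPy 1.17.1, pandas 2.3.3 and matplotlib 3.10.9, and the fold calls were tested on simulated data.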

Additional observations from a re-analysis of the deposited data

Results flagged for a closer look

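EPCAM barcodes with 3 or more members were also found among barcodes that the filters had taken out. In AD jejunum there were 9 among the 62 EPCAM barcodes removed as doublets (14.5%) and 4 among the 30 with under 500 genes (13.3%). In NB abomasum there were 5 among the 454 removed as doublets (1.10%), and in NB duodenum 4 among the 247 removed as doublets (1.62%), where the kept barcodes held 1. With no control samples, each of these counts was set against the limit that a count of 0 allows, so any count above 3 was flagged whatever the usual share. Among kept EPCAM barcodes that share was 33.5% in AD jejunum, 0.639% in NB abomasum and 0.0295% in NB duodenum.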

How the results depend on the processing

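No paired analysis was possible because each tissue and stage had 1 library; for the same reason no replicate could be left out. Under alternatives, 25 counts of members called or shares of barcodes with 3 or more members moved and 248 did not. These shares were of the AD libraries and NB abomasum, duodenum, jejunum, cecum and colon. The counts of members lower in AD were among them, at 0 as reported in every tissue. A count that changed by a small factor was scored as not moved. PTGS1 leaving the duodenal and jejunal counts at a pseudocount of 20 CPM is an example. Shares and levels were scored against their counting intervals. Among single levels, shares of barcodes with each gene and the other libraries' shares, 329 moved and 1237 did not. No call reversed. The uncalled stage difference of PTGS1 in cecum turned from 0.61-fold to 1.07-fold with KRT8 or KRT18 required. Members higher in AD cecum numbered 5 with under 10% mitochondrial UMIs, 5 with EPCAM barcodes taken whatever PTPRC was, and 1 with a pseudocount of 20 CPM; in AD colon they numbered 3 with no upper gene limit, 2 with a pseudocount of 20 CPM and 2 with ratios centred on the median gene. Members higher in EPCAM than PTPRC barcodes of AD cecum numbered 5 with under 10% mitochondrial UMIs, 5 whatever PTPRC was and 5 with a pseudocount of 1 CPM, and of AD colon 2 with a pseudocount of 20 CPM. The share of EPCAM barcodes with 3 or more members was 22.7% in AD duodenum with 2 or more EPCAM UMIs, and 26.4% in AD jejunum whatever PTPRC was. With KRT8 and KRT18 in place of EPCAM it was 33.3% in AD duodenum, 48.3% in AD jejunum, 23.6% in AD colon and 0 in NB duodenum. After thinning it was 0.372% in NB abomasum, 0.226% in NB cecum and 0 in NB duodenum. With 2 or more of POU2F3, AVIL, GNG13 and TRPM5 it was 0.702% in NB colon and 0 in NB duodenum and cecum. Of the 3 alternatives chosen after seeing the data, requiring KRT8 or KRT18, or no COL1A2 or PECAM1, gave 0 in NB duodenum, and leaving out mast-marker barcodes gave 0 in NB cecum. The cause of these moves was not tested. AD EPCAM classes of 54 to 310 barcodes limit every AD value.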

Other observations

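Over the 15 libraries, among genes at 10 CPM or more in EPCAM barcodes of any library, those most like POU2F3 in log2(CPM + 5) were GFI1B (Pearson r = 0.958), ENSBTAG00000048135 (0.946), ANKS1A (0.901), SSLP1 (0.892) and ENSBTAG00000050088 (0.891). CHAT, under that level and with no more than 2 UMIs in EPCAM barcodes of any library, gave 0.991, and the other members between -0.21 and 0.76. Each of the 5 was highest in AD jejunum, as POU2F3 was, and the libraries differ in depth and epithelial makeup.

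Some members were read in places outside the account above. AVIL had 104 UMIs in PTPRC barcodes of NB liver (1.22% of them). GNG13 had 12 UMIs in 11 of 1421 B class barcodes of NB ileum. BMX stood at 137 CPM in PECAM1 barcodes of NB salivary gland (21 barcodes) and 43.7 CPM in those of NB reticulum. LTC4S stood at 14.0 to 30.6 CPM in PECAM1 barcodes of NB gut. In NB reticulum the 12 PTPRC barcodes gave LTC4S at 1199 CPM.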
